A study of Mus musculus with 3 samples.

Results

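Transcripts of the oxidative phosphorylation machinery were measured in hearts of mouse embryos at embryonic day 15.5 (E15.5) on 3 two-colour Agilent whole-genome arrays. The members were chosen by name: gene probes whose gene name begins with Nduf, Uqcr or Atp5 or with Cox4 to Cox8, or equals Sdha, Sdhb, Sdhc, Sdhd or Cyc1. The rule took 131 of 41174 gene probes. By the newest design annotation, 128 of these probes stood for 90 of the 27674 gene names on the array. Of the 90 genes, 41 belong to complex I, 4 to complex II, 9 to complex III, 19 to complex IV and 16 to complex V. The last gene, Cox4nb, carries the name but is a subunit of a membrane protein complex of the endoplasmic reticulum and was placed in no complex. The other 3 probes bear an Ndufab1 or Ndufs1 name in the oldest design file alone and were left out of all gene summaries. Of the 131 probes, 125 were bright enough to be tested, as were 28328 of all gene probes. The untested members were the single probes of Cox7b2 and Cox8c, whose expression is known mainly from testis, 1 probe each of Ndufs4 and Ndufs5, and 2 of the probes whose name was withdrawn.

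Each array carried a pool of 2 hearts labelled Lrrc10-/- in the red dye Cy5 and a pool of 2 hearts labelled Lrrc10+/+ in the green dye Cy3. Both pools are of the C57BL/6 background, and the study's methods describe the paired hearts as littermates. The wild-type labels hold an adult time of sacrifice beside E15.5, and E15.5 was used. The 3 arrays are the 3 replicates, and all ratios below are log2 of Cy5 over Cy3. No array had its dyes exchanged, so genotype and dye cannot be told apart.

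Lrrc10, the targeted gene, went against the labels. Its probe read 3.99, 4.78 and 4.45 on the log2 scale on replicates 1, 2 and 3, so every array gave a higher level in the channel labelled Lrrc10-/- (limma, Benjamini-Hochberg adjusted p = 0.000387). Whether this probe lies in the deleted part of the gene is not given in the sources used here. The channels are therefore called by their labels throughout, and every direction below would turn if the labels were exchanged. Cardiomyocyte transcripts were abundant in both channels, with the probes of Myl7 and Tnni3, of atrial myosin light chain and cardiac troponin I, at the scanner's limit in both. Of the other cardiomyocyte markers, Myh6 read -0.55, 0.15 and -0.24, Actn2 -0.59, -0.28 and 0.05, and Tnnt2 -0.10, 0.29 and -0.32. Liver transcripts differed widely between pools: Afp read 0.82, -5.15 and 0.77 and Alb 0.81, -2.74 and 0.17 on the log2 scale on replicates 1, 2 and 3. The summed signal of 5 liver markers ran from 1385 to 21953 in Cy5 and from 745 to 24473 in Cy3. Their part in the ratios of the respiratory genes was not tested. In whole hearts, fewer cells of a type and less RNA per cell cannot be told apart.

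Oxidative phosphorylation passes electrons from NADH and succinate along complexes I to IV of the inner mitochondrial membrane to oxygen, and complex V, the ATP synthase, uses the proton gradient this builds. Complex I is the NADH dehydrogenase, complex II succinate dehydrogenase, complex III the cytochrome bc1 complex and complex IV cytochrome c oxidase. The heart is among the tissues richest in these complexes, and its capacity grows before and after birth. The comparison asks whether levels of these transcripts differed between the labelled pools before birth.

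No member was called between the channels, and for many members the arrays gave no ratio on all 3 replicates. Of the 125 tested member probes, limma called 0 in either direction at a Benjamini-Hochberg adjusted p under 0.05, with adjustment over every tested probe, where 1.39% of all tested probes were called higher and 0.00353% lower. At an unadjusted limma p under 0.05 there were 10 higher and 0 lower, beside 9.07% and 4.26% of all tested probes. The methods' t-test called 0 members after adjustment as well. The lowest adjusted p of any member was 0.118, for 1 probe of Ndufc1, an accessory subunit of complex I.

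The respiratory genes lay at the top of the scanner's range. A channel was counted as saturated where its flag was set or its mean signal lay within 1% of the scanner's limit. Of the 125 tested member probes, 58 (46.4%) were saturated in both channels on at least 1 array, against 457 of 28328 tested probes overall (1.61%). Replicate 1 had 8 such member probes, replicate 2 had 53 and replicate 3 had 52. Replicate 1 was read on another scanner model, G2505B, than replicates 2 and 3 (G2505C). A further 54 member probes were unsaturated in both channels on all 3 arrays.

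Saturation was uneven between complexes. It reached 66.7% of the tested probes of complex III, 66.7% of complex IV and 64% of complex V, but 34.4% of complex I and 16.7% of complex II. Complex I supplied 32 of the probes that were unsaturated throughout, among them those of the core subunits Ndufs1, Ndufs7, Ndufs8 and Ndufv2.

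**Figure D1:**
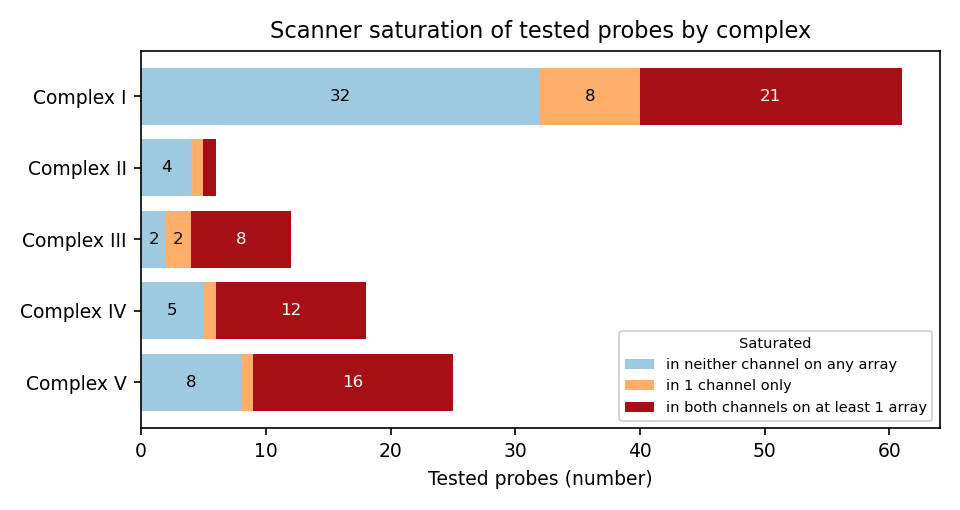
Number of tested probes (horizontal axis) in each complex, split by scanner saturation in neither channel on any array, in 1 channel only, or in both channels on at least 1 array. Probes saturated in both channels are 8 of 12 in complex III, 12 of 18 in complex IV and 16 of 25 in complex V, against 21 of 61 in complex I.

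A probe at the limit in both channels returned nearly the same number whatever its gene. Among member probes saturated in both channels, log2 ratios ran from -0.331 to -0.328 on replicate 1, from -0.176 to -0.112 on replicate 2 and from -0.169 to -0.128 on replicate 3. The medians were -0.331, -0.125 and -0.163, and non-member probes at the limit had medians of -0.331, -0.125 and -0.162. No fold is given for such a probe. Where Cy5 alone was saturated, the ratio on that array is a lower bound.

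**Figure D2:**
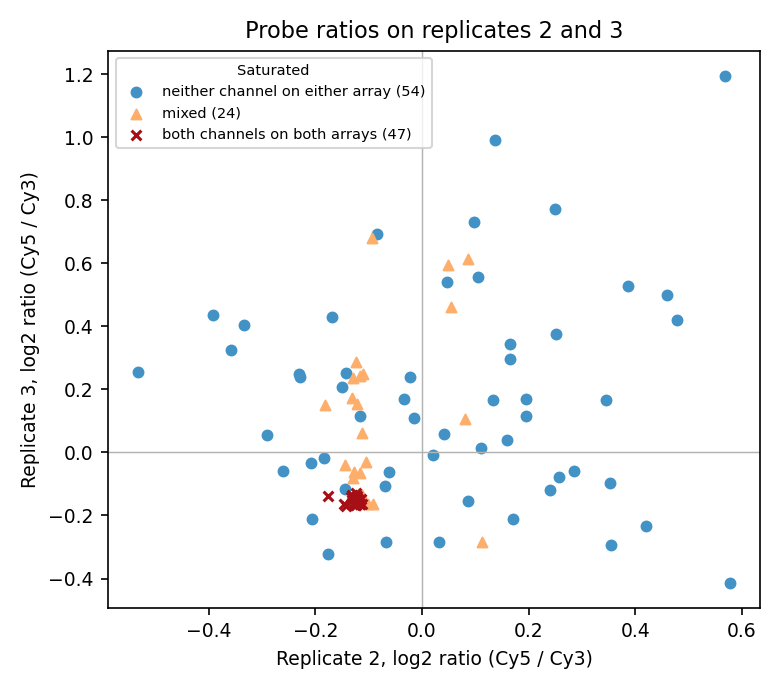
Log2 ratio (Cy5 over Cy3) of the 125 tested member probes on replicate 2 (horizontal axis) and replicate 3 (vertical axis), marked by saturation on those 2 arrays. The 47 probes saturated in both channels on both arrays pile up at 1 point just below 0, while the 54 unsaturated probes spread widely.

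Most lower calls of other tests fell on saturated probes, and their higher calls did not. The methods' t-test at an unadjusted p under 0.05 gave 5 member probes higher and 11 lower, beside 5.38% and 3.92% of all probes it tested. All 5 higher probes were unsaturated throughout, and 9 of the 11 lower probes were saturated in both channels on at least 1 array. The scanner software's own ratio, in limma, gave 1 higher and 6 lower at that threshold, beside 4.61% and 2.1% of all tested probes. The higher probe was unsaturated, and all 6 lower probes were saturated in both channels on at least 1 array. With loess ratios in limma, 8 of the 10 higher probes were unsaturated throughout, which is 14.8% of the 54 unsaturated member probes, beside 9.15% of all unsaturated tested probes. Of the 54, 0 were lower at that threshold, beside 4.36% of all unsaturated tested probes.

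Genes that the study followed by PCR in adults were among those without a ratio. Transcripts of Cox5a, Cox7a1, Atp5c1, Atp5o, Atp5h, Ndufb9 and Ndufa13 had been chosen for PCR in adult hearts. On the embryonic arrays, all 8 probes of these 7 genes were saturated in both channels on replicates 2 and 3. On replicate 1, 4 of the 8 were also saturated in both channels and 3 in Cy5. The remaining one, of Cox7a1, the heart and muscle isoform of a cytochrome c oxidase subunit, read 0.29 on that array.

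By the same limit, 42 of the 90 genes have no ratio on all 3 arrays: Cox7b2 and Cox8c, which were not tested, and 40 that were saturated. Ratios on all 3 arrays were left for 48 genes, each represented by its brightest tested probe that was not saturated in both channels on any array, and 39 genes had a probe unsaturated throughout. Over these 48 genes the median log2 ratio was 0.14, 0.03 and 0.17 on replicates 1, 2 and 3, a mean of 0.11 ± 0.07 (SD, n = 3 arrays). All 18734 tested genes with a probe chosen by the same rule had a mean median of 0.03 ± 0.01 on the same scale. By the software's ratio the members' median was 0.04 ± 0.07 and that of all genes -0.01 ± 0.02. The 48 genes include some with Cy5 alone saturated on an array. The 39 genes unsaturated throughout had loess medians of 0.01, 0.04 and 0.21 on replicates 1, 2 and 3 (0.09 ± 0.11). For Ndufb2, Ndufb8, Atp5j2 and Uqcrq the probe left was a dim one designed on another transcript. Their RefSeq probes were saturated in both channels on replicates 2 and 3. Cy5 signals of the dim Ndufb8 probe ran from 209 to 354, against 38919 to 86342 for the saturated one. The dim Ndufb2 probe read 0.0072 on replicate 1. The saturated one read 0.9987 there, a lower bound as Cy5 was saturated. Medians without such probes were not computed.

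Over the 48 genes, the medians of every pair of complexes overlapped in range over the 3 arrays. Complex I (27 genes) had a median log2 ratio of -0.02, -0.07 and 0.21 on replicates 1, 2 and 3 (0.04 ± 0.15). Complex II (3 genes) had 0.08, -0.21 and -0.06 (-0.06 ± 0.14). Complex III (4 genes) had 0.10, 0.05 and 0.57 (0.24 ± 0.29). On the software's scale complex III read -0.03, -0.04 and 0.33, below 0 on replicates 1 and 2. Complex IV (6 genes) had 0.40, -0.05 and 0.11 (0.15 ± 0.22), and complex V (7 genes) had 0.32, 0.11 and 0.06 (0.16 ± 0.14). Some medians on replicates 2 and 3 take in genes with Cy5 saturated, whose ratios are lower bounds. The -0.05 of complex IV lies between Cox6b1 (0.02) and Cox7c (-0.12), and Cox7c had Cy5 saturated on replicate 2. By the software's ratio the mean medians of complexes III, IV and V were 0.09, 0.08 and 0.03, and complex V lay below 0 on replicates 2 and 3. With the 39 genes unsaturated throughout, the overlap ended for complex II (2 genes), which ran from -0.23 to -0.11. That range lay below complex I (23 genes, -0.03 to 0.24) and complex III (2 genes, 0.10 to 0.87). It also lay below complex IV (5 genes, 0.02 to 0.29) and complex V (6 genes, 0.09 to 0.26). These genes gave, by the software's ratio, -0.23 to 0.0143 for complex II, overlapping complexes III (-0.08 to 1.01), IV (-0.0046 to 0.138) and V (-0.08 to 0.18). Complex I ran from 0.0173 to 0.263 on that scale, still above complex II but by a narrow margin.

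**Figure D3:**
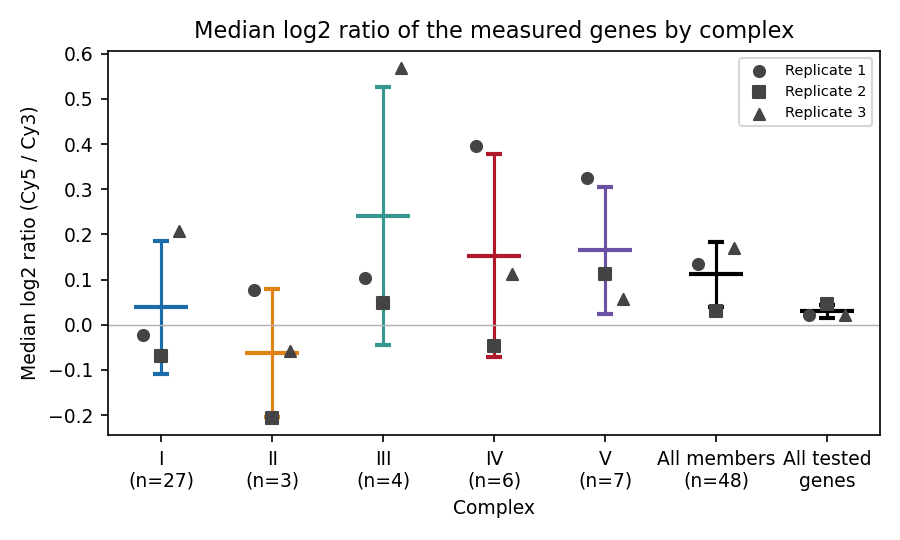
Median log2 ratio (Cy5 over Cy3) of the genes with a ratio on all 3 arrays, by complex, for all members and for all tested genes. Symbols are the 3 replicates, and horizontal bars with whiskers are their mean and SD. The SD bars of complexes I, II, III and IV cross 0, and replicates do not keep 1 order between complexes.

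Replicate 1 alone left more genes below the limit. On that array 72 genes had an unsaturated probe, and their median log2 ratio was 0.24, with 52 genes above 0. All 18910 genes unsaturated there had a median of 0.02, with 52.8% above 0. The members' medians on this array were 0.15 for complex I (36 genes), 0.07 for complex II (4 genes), 0.52 for complex III (8 genes), 0.29 for complex IV (11 genes) and 0.26 for complex V (12 genes). By the software's ratio the 72 genes had a median of 0.19, and complex III had 0.19. These values come from 1 pair of pools and have no replicate check. The 24 genes measured on replicate 1 that gave no ratio on all arrays ran from -0.25 to 1.09 with a median of 0.42, and 23 lay above 0. The software's ratio of these genes ran from -0.26 to 0.89 with a median of 0.24, again with 23 above 0. The lowest was Atp5a1, the alpha subunit of the ATP synthase, and the highest Atp5l, a small membrane subunit of the same enzyme.

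Within complex I, the highest and lowest genes were both core subunits. Ndufv2, an iron-sulfur subunit of the NADH-oxidising module, read 0.58, 0.39 and 0.53 on replicates 1, 2 and 3, above 0 on all arrays (mean 0.50 ± 0.10, SD, n = 3; limma adjusted p = 0.127). Ndufs1, the large iron-sulfur subunit of the same module, read -0.37, -0.07 and -0.11, below 0 on all arrays (mean -0.18 ± 0.17, limma adjusted p = 0.565). The core subunits Ndufs7 and Ndufs8 lay between them. Ndufs8 read 0.80, 0.24 and -0.12, and Ndufs7 read -0.04, -0.07 and -0.28. Ndufs8 thus changed sign between arrays, and Ndufs7 lay below 0 on all of them. The accessory subunit Ndufb5 spread more widely, at -0.03, 0.14 and 0.99. The assembly factors Ndufaf1 and Ndufaf3 were each below 0 on replicates 1 and 2 and above 0 on replicate 3. So was the brightest probe of Ndufaf4, at -0.39, -0.33 and 0.40. The other Ndufaf4 probes, also unsaturated, did not share this pattern. They read 0.13, 0.20 and 0.17, and -0.36, 0.16 and 0.04.

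In complex II, which also serves the tricarboxylic acid cycle, the subunits did not move together. Sdha, the flavoprotein that oxidises succinate, read -0.30, -0.21 and -0.21 (mean -0.24 ± 0.05, limma adjusted p = 0.422). Sdhb, the iron-sulfur subunit, read 0.47, 0.05 and 0.46, the latter pair as lower bounds because Cy5 was saturated (mean 0.33, limma adjusted p = 0.356). The membrane anchor Sdhc read 0.08, -0.26 and -0.06. Its partner Sdhd was saturated in both channels on replicates 2 and 3 and read 0.06 on replicate 1. Sdha lay below 0 and Sdhb above 0 on all arrays, and neither passed the test.

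In complex III, Cyc1, the cytochrome c1 subunit, read -0.13, -0.10 and -0.03 (limma adjusted p = 0.778), the value of replicate 2 as a lower bound because Cy5 was saturated there. Uqcrq, a small accessory subunit, had the highest mean of the 39 unsaturated genes, at 0.24, 0.57 and 1.19 (0.67 ± 0.49, limma adjusted p = 0.190). This value comes from 1 probe, as the other was saturated. Uqcrb, which supports the ubiquinone-binding part of the complex, read 0.78, 0.05 and 0.59 (limma adjusted p = 0.273), with Cy5 saturated on replicate 2.

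In complex IV, several subunits exist as a general form and a heart and muscle form. Cox8b, a heart and muscle form, read 0.89, 0.35 and 0.17, above 0 on all arrays (mean 0.47 ± 0.38, limma adjusted p = 0.276). By the software's ratio it read 0.66, 0.15 and -0.09. Its general counterpart Cox8a was saturated in both channels on replicates 2 and 3 and in Cy5 on replicate 1. Of the Cox6a pair, the muscle form Cox6a2 read 0.10 on replicate 1 and was at the limit in both channels on the others, and Cox6a1 was at the limit on all 3 arrays. Cox7a1 and Cox7a2 were also without a ratio on all arrays, at 0.29 and 0.14 on replicate 1 for Cox7a1 and 1 probe of Cox7a2, and 0.66 for the other Cox7a2 probe. No isoform shift could therefore be read for Cox6a, Cox7a or Cox8.

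Of the 4 forms of restricted expression, Cox4i2 and Cox6b2 were tested. Cox4i2, a form of subunit 4 known from lung and hypoxic cells, read -0.21, -0.21 and -0.03 (mean -0.15, limma adjusted p = 0.616), but its Cy5 signal was well above background on 1 of the 3 arrays, and by the software's ratio its mean was 0.02. Its general form Cox4i1 was saturated in both channels on replicates 2 and 3. Cox6b2, the testis form, read -0.22, -0.29 and 0.06, and the general form Cox6b1 read 0.29, 0.02 and -0.01. For Cox6b the arrays differ in which form stands higher in the channel labelled Lrrc10-/-. The highest mean of complex IV was that of Cox7a2l, which takes part in joining complexes III and IV into supercomplexes, at 0.51, 0.25 and 0.77 (mean 0.51 ± 0.26, limma adjusted p = 0.180). Ndufa4, named for complex I but a subunit of complex IV, read 0.38 on replicate 1 and was saturated on the others. Ndufa4l2, its hypoxia-induced relative, was not on the array under that name.

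In complex V, Atp5b, the catalytic beta subunit, and Atp5f1, the b subunit of the peripheral stalk, marked the ends. Atp5b read -0.68, -0.53 and 0.25 by its unsaturated probe (mean -0.32 ± 0.50, limma adjusted p = 0.515). Another Atp5b probe read -0.28 on replicate 1 and was saturated in both channels on replicate 2, and the remaining one was saturated on all arrays. Atp5f1 read 0.19, 0.46 and 0.50 by its brighter unsaturated probe (mean 0.38 ± 0.17, limma adjusted p = 0.252). Its other unsaturated probe read -0.33, -0.01 and 0.11, with a mean of opposite sign (-0.08). Of the 3 genes for the membrane ring subunit c, Atp5g3 was at the limit on all arrays and Atp5g1 on replicates 2 and 3. Atp5g2 read 0.42, 0.11 and -0.28, with Cy5 saturated on replicate 2. The other Atp5g2 probe read -0.17 on replicate 1 and was saturated in both channels on replicates 2 and 3.

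The scanner software's ratio gave smaller means for several of these genes. Atp5f1 read -0.25, 0.16 and 0.22 on that scale (mean 0.04), Cox7a2l read 0.08, -0.05 and 0.49 (mean 0.17), and Sdhb read 0.15, -0.18 and 0.23 (mean 0.07). Each was thus below 0 on 1 array, as were Uqcrq on replicate 1 (-0.11) and Uqcrb on replicate 2 (-0.24). Ndufv2 stayed above 0 on all arrays, at 0.41, 0.18 and 0.32, and Sdha below 0, at -0.18, -0.23 and -0.30.

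**Figure D4:**
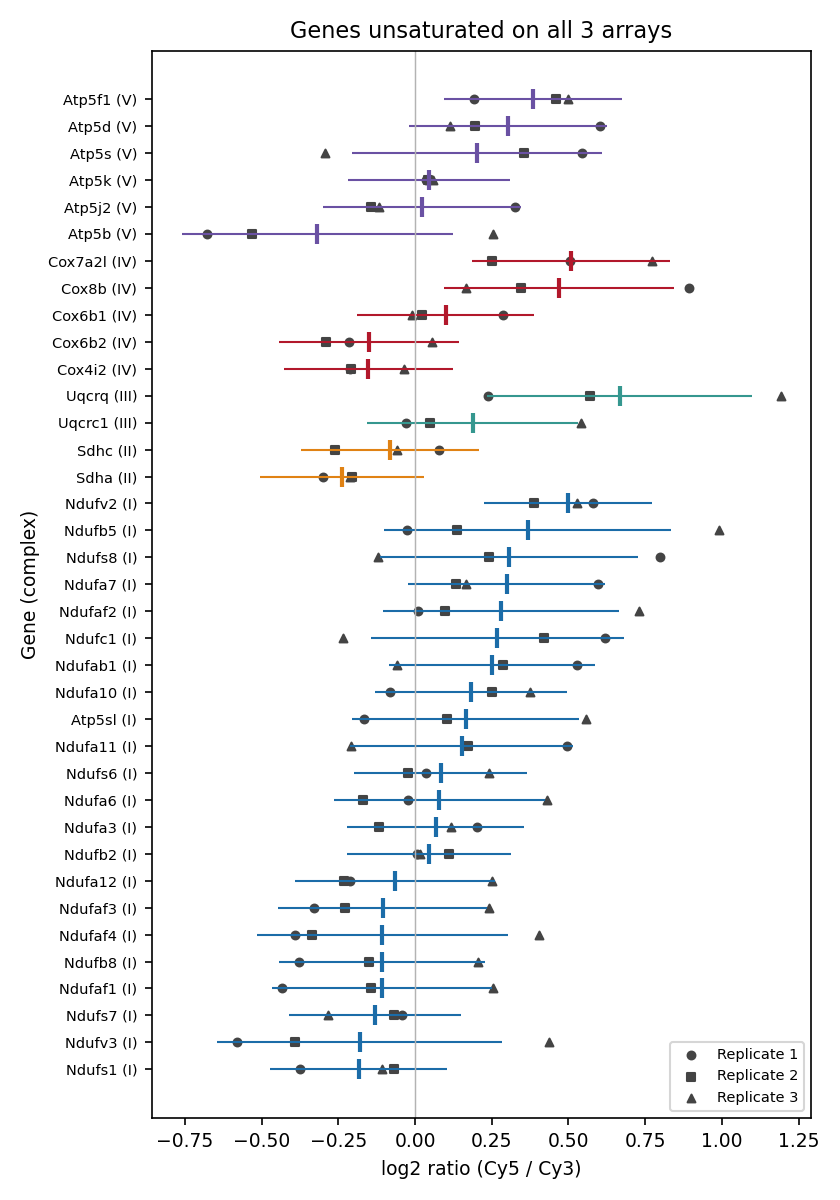
Log2 ratio (Cy5 over Cy3, horizontal axis) of 37 of the 38 genes of complexes I to V with a probe unsaturated on all 3 arrays, ordered by complex and mean. Symbols are the 3 replicates, the vertical tick is the mean and the line its 95% limma interval. For most genes the interval crosses 0.

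The intervals show what these 3 arrays could resolve. Over the 39 unsaturated genes, Cox4nb included, the half-width of the 95% limma interval ran from 0.26 to 0.47 on the log2 scale, with a median of 0.33. It spanned 0 for 33 genes and lay above 0 for 6, before any adjustment over probes. For 37 of the 39 genes the mean was under 0.5 in size. By the software's ratio, 1.2-fold or more in 1 direction on all 3 arrays was met by 1 of the 54 unsaturated member probes, the Ndufc1 probe named above, beside 3.64% of unsaturated tested probes that were higher and 1.56% that were lower.

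Replicate 3 differed from the others in direction. Across the 39 unsaturated genes, log2 ratios of replicates 1 and 2 had a Pearson correlation of 0.77, replicates 1 and 3 of -0.16, and replicates 2 and 3 of 0.18. Over all genes with a tested probe unsaturated on all arrays these were 0.53, 0.26 and 0.26. These are correlations across genes that share arrays and dyes, and are given as a description. Of the 54 unsaturated member probes, 25.9% lay above 0 on all 3 arrays and 13.0% below 0 on all 3. Over all unsaturated tested probes the shares were 19.4% and 17.1%. Of the 39 genes, 31 had 1 sign on replicates 1 and 2, but 16 had the opposite sign on replicate 3. Of these 16, 10 were below 0 on replicates 1 and 2 and above 0 on replicate 3. The epicardial markers Wt1 and Upk3b turned the same way, Wt1 reading -0.18, -0.17 and 0.44, while the third marker, Tbx18, read 0.15, 0.06 and -0.25. The summed signal of the 3 ran from 3642 to 6912 in Cy5 and from 3993 to 6501 in Cy3. Their part in the ratios of the respiratory genes was not tested.

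**Figure D5:**
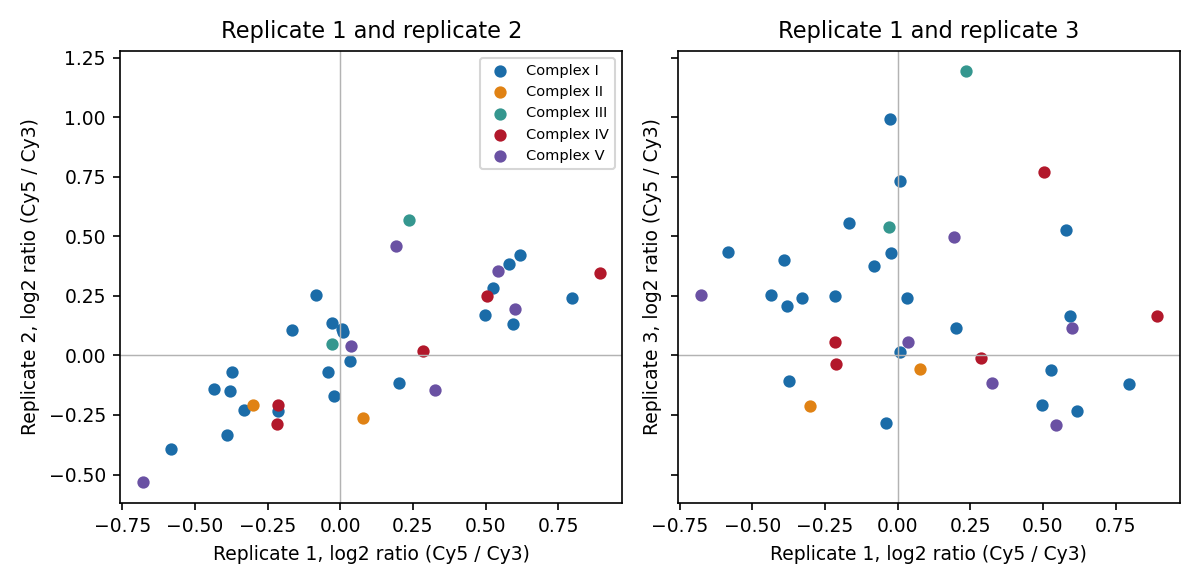
Log2 ratio (Cy5 over Cy3) on replicate 1 against replicate 2 (left) and replicate 3 (right) for 37 of the 38 genes of complexes I to V unsaturated on all arrays, coloured by complex. Replicates 1 and 2 rise together (r = 0.77 over 39 genes), and replicates 1 and 3 do not (r = -0.16).

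Calls appeared once replicate 3 was left out. On replicates 1 and 2 alone, limma called 4 member probes higher and 1 lower, 3.2% and 0.8% of the members, beside 5.48% and 0.882% of all probes in that fit. The calls were both unsaturated Ndufc1 probes (0.57 and 0.52), Cox8b (0.62, adjusted p = 0.0249), the Sdha probe designed on AK005350 (0.63) and, lower, Atp5b (-0.61, adjusted p = 0.0170). Replicate 3 read -0.41 for that Sdha probe, -0.23 for the Ndufc1 probe at 0.52 and 0.25 for Atp5b, each opposite to the other arrays.

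Different probes of a gene did not always give the same sign. Of 14 genes with at least 2 probes free of saturation in both channels, 9 had probes with means of opposite sign, and for Sdha and Ndufv3 the means lay over 0.5 apart. The final 30 bases of the 60-base probes are shown for 3 of these genes and for Uqcrq, 5′ to 3′ and named by the transcript each was designed on, so that the stretch behind each ratio can be seen. Differences between probes were not tested. Capitals mark AATAAA, the signal for polyadenylation, which 9.6% of tested member probes and 4.67% of all tested probes contain. Positions are mm9, all on the minus strand.
Sdha, NM_023281, chr13:74460146-74460205: tgtgtgaagtagggcaggtccttcataatt
Sdha, NM_023281, chr13:74465756-74465815: gaagtataagaacatcagaactacgcctaa
Sdha, AK005350, chr13:74486662-74486720: tcttttgtagcagaaaataggtgagcccac
Ndufc1, ENSMUST00000038108, chr3:51208820-51208879: accctagcctcaaatagcatgcaaaagtag
Ndufc1, NM_025523, chr3:51209408-51209467: tggttaagttaaagaAATAAAaatactcgc
Ndufc1, NM_025523, chr3:51211298-51212089: aaacacacaatgaagatgttttggagtata
Uqcrq, NM_025352, chr11:53242471-53242530: aatccacactgtagtcttgaagacAATAAA
Uqcrq, AK017907, chr11:53243452-53243511: tcataatggtgtctacatttaatccccagc
Ndufv2, NM_028388, chr17:66438669-66438810: aaactataagaggatagagacaatagtaaa
Ndufv2, AK044019, chr17:66442062-66442121: ttagaatactacttcctttgtttagagtgg

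For Sdha, the 2 probes designed on the RefSeq transcript had means of -0.20 and -0.24, and the probe designed on AK005350 read 0.68, 0.58 and -0.41 (mean 0.28). For Ndufc1, the probe that contains AATAAA read 0.52 on replicate 1 but was saturated in both channels on 1 array, while the probe furthest downstream read 0.67, 0.48 and 0.42 (mean 0.52, limma adjusted p = 0.118). The Ndufc1 probe that spans 792 bases of the genome, and so crosses a splice junction, read 0.62, 0.42 and -0.23. The 3 Ndufc1 probes agreed in sign on replicate 1. The Uqcrq probe that ends in AATAAA was at the limit in both channels on 2 arrays, and the AK017907 probe gave the ratio of 0.67 above. For Ndufv2 the RefSeq probe, which spans 142 bases of the genome, had a mean of 0.50, whereas the AK044019 probe read -0.06, 0.26 and -0.08. The AK044019 probe was dim, with Cy5 signals from 47 to 156, against 27832 to 48832 for the RefSeq probe. Ndufv3 had the same split without a change of transcript: 1 probe of NM_030087, with Cy5 saturated on 2 arrays, had a mean of 0.32, and the others of the same transcript had -0.18 and -0.18.

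Promoters of these genes share letters that the name rule did not use. RefSeq start sites (GRCm38.p6) were found for 74 of the 90 genes, as 80 windows of 250 bases before to 50 after the start, among 32851 such windows in all. Both strands were searched. The letters GCGCATGC, from the core site of NRF1, a regulator of respiratory genes, lay in 13.8% of the member windows and 2.71% of all windows. The YY1 core AAGATGGCG lay in 11.2% against 1.40%, the GABPA core CCGGAAG in 21.2% against 8.86%, and the ERR half-site AAGGTCA in 10.0% against 4.72%. No motif contains another, and at least 2 of the motifs lay in 8 of the 80 windows. A match of letters does not show binding. Of 11 genes with the NRF1 letters, 7 had a ratio on all arrays. Their sites are shown on the gene's strand with 10 bases on either side, the site or its reverse complement in capitals.
Ndufaf4, chr4:24897960-24897987: ccagatgtctGCGCATGCgcctgtgcgg
Sdhb, chr4:140961207-140961234: agcccagtggGCATGCGCcctacgggcc
Atp5k, chr5:108434432-108434459: tttcactgcgGCGCATGCgcctttctgg
Uqcrc1, chr9:108936668-108936695: actccgctctGCGCATGCgcagcgcggc
Ndufa6, chr15:82354357-82354384: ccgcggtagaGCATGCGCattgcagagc
Atp5g2, chr15:102671072-102671099: ggctccggccGCGCATGCgcagagcctt
Ndufa11, chr17:56717692-56717719: cctgcactgcGCGCATGCgcgcacgcct

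These genes did not share a ratio. Atp5k, a membrane subunit of the ATP synthase, was level at 0.04, 0.04 and 0.06, and Uqcrc1, a core protein of complex III, read -0.03, 0.05 and 0.54. The accessory complex I subunits Ndufa6 and Ndufa11 differed in sign on each array, Ndufa6 at -0.02, -0.17 and 0.43 and Ndufa11 at 0.50, 0.17 and -0.21. Both means lay above 0, at 0.08 and 0.15.

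Genes that serve the chain without being its subunits were taken from lists written from general knowledge. Of 36 assembly factors outside the name rule, 35 were on the array and 33 had a ratio. At an unadjusted limma p under 0.05, 2 were higher and 2 lower, beside 9.07% and 4.26% of all tested probes. After adjustment 1 was called higher and 0 lower, beside 1.39% and 0.00353% of all tested probes. The called gene was Timmdc1, a complex I assembly factor, at 0.92, 1.07 and 0.71 (mean 0.90 ± 0.18, limma adjusted p = 0.024). The array names this gene 4930455C21Rik, and its other probe had a mean of 0.24 and did not pass (limma adjusted p = 0.636). Acad9, another complex I assembly factor, read -0.45, -0.39 and -0.57 and did not pass (limma adjusted p = 0.148). The list's median was 0.04.

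Of 18 electron carriers and transporters, 17 were on the array and 12 had a ratio, with 0 called and 4 of the 12 higher at an unadjusted limma p under 0.05, where 9.07% of all tested probes were. These were Cycs, cytochrome c itself (0.54, 0.31 and 0.58), Etfa (0.73, 0.54 and 0.41) and Etfdh (0.70, 0.50 and 0.15) of the route from fatty acid oxidation, and Ckmt2, the mitochondrial creatine kinase of muscle (0.68, 0.33 and 0.80). All 4 lay above 0 on the 3 arrays, with limma adjusted p from 0.106 to 0.240, and Cycs and Etfdh had Cy5 saturated on 1 array each. On the software's scale Cycs read 0.10, 0.03 and 0.41 and Etfdh 0.22, 0.23 and -0.05. Slc25a4, the ADP/ATP carrier of heart, was saturated in both channels. The list's median was 0.16.

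Of 25 regulators of respiratory gene expression, 23 had a ratio and 0 were called. At an unadjusted limma p under 0.05, 9.07% of all tested probes were higher and 4.26% lower. At that threshold 0 regulators were higher and 2 lower. Those were Pprc1, a coactivator of the PGC-1 family (-0.42, -0.43 and -0.20), and Yy1 (-0.29, -0.13 and -0.70). Ppargc1a, the coactivator PGC-1alpha, read 0.01, 0.55 and -0.31, Tfam, which packages mitochondrial DNA, 0.08, 0.03 and 0.36, and Nrf1 -0.12, 0.25 and -0.01. The list's median was -0.01. None of the 13 subunits encoded by mitochondrial DNA was matched to a probe by its own name.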

How the data were processed

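The deposited scanner files hold spot intensity in Cy5 and Cy3, and per the file headers Feature Extraction 9.1.3.1 (replicate 1, protocol edited to local background) or 10.7.3.1 (replicates 2 and 3) wrote them. The submitters' processing notes name version 9.5. The log10 ratio of processed Cy5 over Cy3, deposited in the same files and equal in the series table (largest difference 0), was dye-normalized by the authors' software. Log2 ratios were computed in limma 3.58.1 (R 4.3.3) from mean signals with normexp on the median local background (offset 50) and loess within each array, control spots at weight 0. Non-uniform spots were left out and spots of 1 probe averaged. A probe was tested if all 3 arrays had it well above background in Cy5, or all 3 in Cy3. Ratios were tested against 0 (lmFit, eBayes, two-sided), with Benjamini-Hochberg adjustment over every tested probe. The fit was tested on simulated data. The number of arrays, 3, limits the precision. The labels name the arrays as separate replicates, and p-values measure the spread between these pools.

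Complexes were assigned from general knowledge. Members and lists were chosen with earlier results of these data known. The rule for named genes took every member called, the highest and lowest gene of each complex, Sdha to Sdhd, Cyc1, the adult PCR genes, isoform pairs, Atp5g1 to Atp5g3, Ndufa4, Ndufa4l2, and genes whose probes' means differ by over 0.5. Other members were named after their values were seen. Sequences are those of the array files and RefSeq. All 90 gene names matched the RefSeq table. The values of 1 gene are not reported here, though it counts in the summaries.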

Additional observations from a re-analysis of the deposited data

How the results depend on the processing

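Counts of 0 members called higher and 0 called lower held under every alternative listed at the outset except leaving out replicate 3 (4 higher and 1 lower), so that leaving out 1 array gave 0 to 4 higher and 0 to 1 lower. A rule chosen after seeing the data, 1.2-fold on all 3 arrays by the software's ratio, took 1 member higher. Each array holds 1 pool of either label, so its ratio is the difference within that pair. The tests of these ratios against 0 are therefore paired already, and no further paired analysis was made. Leaving out 1 array at a time, the mean median log2 ratio ran from -0.046 to 0.092 for complex I, -0.132 to 0.0094 for complex II, 0.076 to 0.336 for complex III, 0.032 to 0.254 for complex IV, 0.085 to 0.219 for complex V and 0.083 to 0.152 for all member genes. With the brightest probe whether saturated or not, complex V moved to -0.105 and all members to -0.0388, and complexes I and IV also turned, to -0.016 and -0.043, with complex III at 0.077. Complex I turned to -0.065 with median centring and complex II to 0.024 as the mean of each gene's probes. With genes unsaturated on all arrays, chosen after seeing the data, complex II had -0.160, complex III 0.427 and all members 0.086. All members moved to 0.0391 by the software's ratio and the deposited series table alike, and to 0.0293 with median centring. Directions turned for Atp5g2 (-0.075 by the software's ratio and the series table, -0.024 with median centring, -0.086 to 0.267 leaving out 1 array), Cox4i2 (0.016 by the software's ratio and the series table), Ndufv3 (-0.016 as the mean of its probes) and Sdhc (-0.160 to 0.0094 leaving out 1 array). The cause was not tested. The other 257 of 265 values of the named genes under an alternative kept their direction. Alternatives that change only the test or the filter on dim probes cannot change a gene's ratio, and the series table repeats the software's ratio. That count is therefore no measure of how robust the directions are. Scanner saturation limits the members more than dim signal does: 71 of the 125 tested member probes reached the limit in at least 1 channel of 1 array.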
